A study of Homo sapiens with 6 samples.

Results

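The mitochondrial ribosomal proteins are the nuclear-encoded proteins named MRPL, after the large subunit, and MRPS, after the small subunit. They were taken as the protein-coding genes whose symbol is MRPL or MRPS followed by a number and at most 1 letter. This gave 78 of the 35750 genes listed, 49 named MRPL and 29 named MRPS, and all 78 passed the filter on low values. RNA of T98G, an established human glioblastoma cell line, was sequenced in 3 libraries labelled shControl and 3 labelled shSLC1A5. SLC1A5 is a plasma membrane carrier that exchanges neutral amino acids and brings glutamine into the cell, and the shSLC1A5 label stands for a short hairpin RNA against it. All 6 libraries came from the same line, grown in DMEM with fetal bovine serum and antibiotics, and from RNA captured on oligo(dT) beads. The labels do not state the number of hairpins or clones, the time after delivery or whether the 3 libraries of a group are separate cultures. The p-values therefore rest on variation among these libraries alone, and that variation may be technical.

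Mitoribosomes translate the few proteins that mitochondrial DNA encodes, all of them core parts of the respiratory chain and ATP synthase. Their RNA comes from the mitochondrial genome, while every protein is made in the cytosol, imported and assembled onto that RNA in the matrix. Compared with their bacterial relatives, mitoribosomes hold less RNA and more protein, and many of their proteins have no bacterial counterpart.

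SLC1A5 stood at 95.0, 95.3 and 97.1 FPKM (fragments scaled to the length of the gene and the depth of the library) in the shControl libraries. It stood at 87.5, 88.0 and 88.3 FPKM in the shSLC1A5 libraries. The groups did not overlap, but the drop was small: the log2 fold change was -0.14 ± 0.018 (SE, edgeR adjusted p = 1.93e-04), and the exact two-sided permutation p was 0.1, the smallest that 3 against 3 libraries allow. With a correction for the GC content and length of transcripts, described below, the log2 fold change was -0.35 (edgeR adjusted p = 2.91e-07). Of the glioma markers, VIM stood at a mean of 391 and 339 FPKM in shControl and shSLC1A5, CD44 at 209.6 and 194 FPKM, and FN1 was at 34.1 and 42.6 FPKM (log2 fold change 0.31, edgeR adjusted p = 1.04e-06). CHI3L1 had 28, 37 and 57 counts in shControl and 188, 146 and 137 in shSLC1A5. NES had 32, 45 and 36 counts against 92, 76 and 72, and OLIG2 175, 174 and 160 against 208, 170 and 177. The stem cell marker SOX2 had 8, 7 and 10 counts in shControl and 0 in every shSLC1A5 library. The glial markers GFAP and S100B had at most 28 in any library. Of the markers of other cell types, the sums for B cells and for endothelium moved with the groups. The sums for neutrophils, red cells and macrophages were high in 1 library. The 8 B cell and plasma cell markers summed to 14, 14 and 26 counts in shControl, against 1272, 627 and 976 in shSLC1A5, with 2 or 3 of them detected per shControl library and 6 or 7 per shSLC1A5 library. The 3 endothelial markers summed to 52, 87 and 48 counts against 637, 577 and 578. Neutrophil markers reached 3215 counts in shSLC1A5 library 1 against 12 to 34 in the other 5 libraries, red cell markers 779 against 0 to 20, and macrophage markers 597 against 88 to 134. These sums rested on few genes. In that library S100A8 had 2301 and S100A9 830 of the neutrophil counts. ALAS2 had 773 of the red cell counts, while HBA1 and HBA2 had 0. PTPRC had 369 of the macrophage counts and CD14 121, while CSF1R had 66, against 62, 57 and 73 in shControl. MPO had 0 counts in every library. The 3 neuron markers summed to 921, 1050 and 904 counts in shControl and 1199, 900 and 1191 in shSLC1A5, and these groups overlapped. Total counts were 59327548 to 70802167 per library, and the part of these markers in the results was not tested.

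Members were read at levels from 2.92 to 90.4 FPKM (mean of 6 libraries), a 31-fold range, and 56 of the 78 had a mean of at least 10 FPKM. The lowest count of any member in any library was 323. MRPL12, a protein of the flexible stalk that binds translation factors, had the highest level, with 85.7, 81.9 and 79.8 FPKM in shControl and 103, 95.4 and 96.9 FPKM in shSLC1A5. MRPL51 followed at 73.3 ± 4.62 and 64.0 ± 2.81 FPKM (SD, n = 3 in each group). MRPL37 stood at 57.1 ± 3.11 and 60.2 ± 0.801 FPKM, and MRPS34, a small subunit protein needed for its stability, at 49.8 ± 2.62 and 55.2 ± 3.42 FPKM. In shControl, MRPL12 and MRPL51 did not overlap, while libraries of MRPL37 (53.9 to 60.2 FPKM) and of MRPS34 (47.1 to 52.3 FPKM) lay close to each other without overlap. In shSLC1A5, libraries of MRPL51 (60.8 to 65.7 FPKM) and MRPL37 (59.4 to 61.0 FPKM) overlapped.

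At the low end stood MRPS33 at 5.56 ± 0.272 and 4.75 ± 0.392 FPKM (SD, n = 3), and MRPL48 at 4.81 ± 0.306 and 4.13 ± 0.0955 FPKM. MRPL46 was at 3.51 ± 0.203 and 3.81 ± 0.201 FPKM and MRPL42 at 3.04 ± 0.0428 and 2.79 ± 0.208 FPKM. FPKM is scaled to length, so these ranks depend on the gene lengths the authors used, which are not given. The longest annotated transcript had 15582 bases for MRPL42 and 5561 for MRPL46, against a median of 1722 over the members. MRPL42 had 3289 to 3674 counts per library. MRPL46 and MRPL48 sit together in the central protuberance, the part of the large subunit that faces the small one. The median member stood at 15.6 FPKM, against 6.30 FPKM over the 11841 genes tested. Across the 78 members the mean FPKM in shControl and in shSLC1A5 followed each other closely, with Pearson r = 0.989 and Spearman rho = 0.988. This describes genes of the same 6 libraries, which are not independent replicates.

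**Figure D1:**
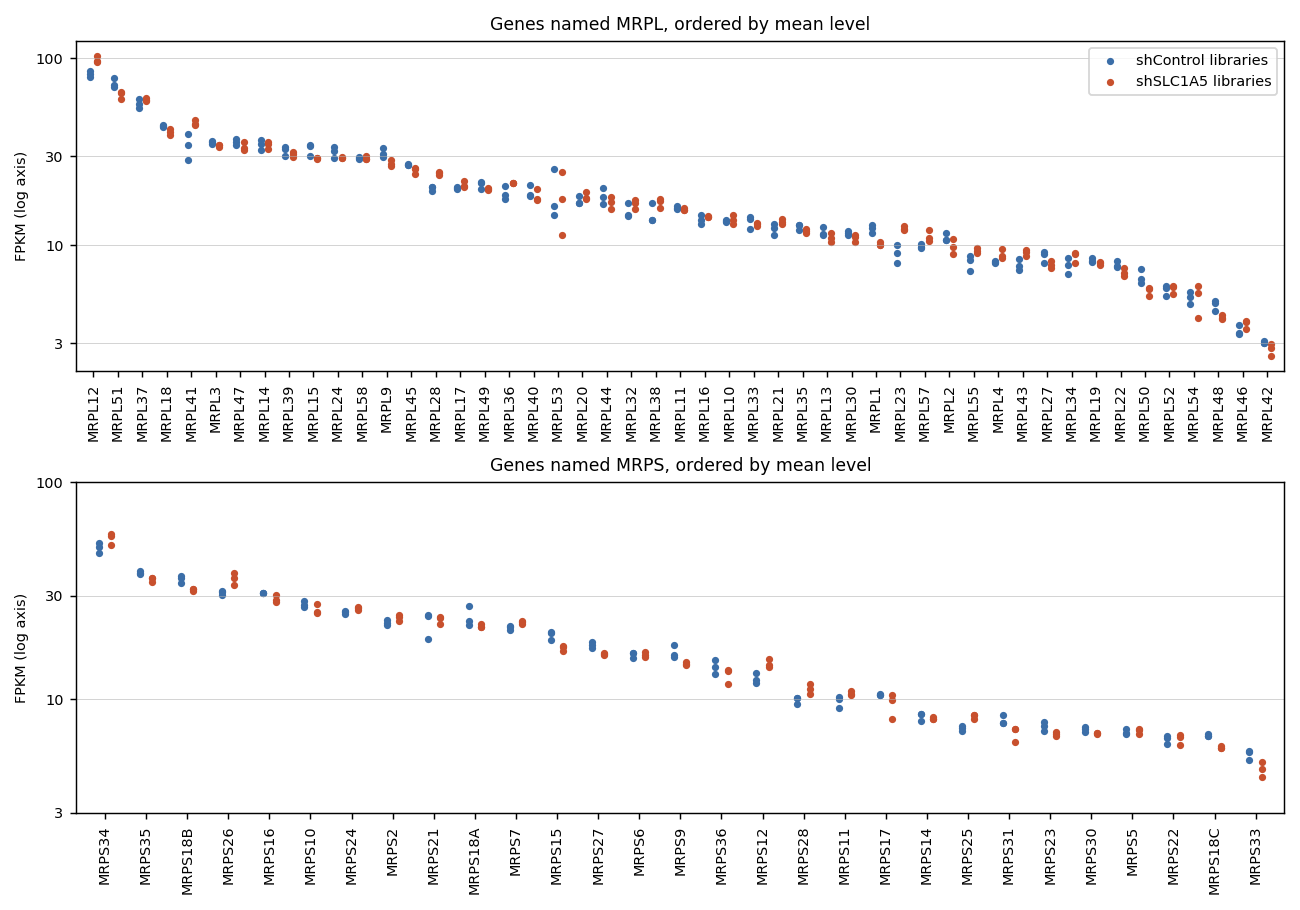
FPKM on a log axis of each member in the 3 shControl and 3 shSLC1A5 libraries, large subunit names above and small subunit names below, ordered by mean level. MRPL12 lies at the top at 90.4 FPKM and MRPL42 at the bottom at 2.92 FPKM, and the points of most members from the 2 groups lie close together.

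The summed level of the MRPL members was 1002, 964 and 1028 FPKM in shControl and 1009, 1010.2 and 1005 FPKM in shSLC1A5. The summed level of the MRPS members was 520.2, 510.3 and 529 FPKM in shControl and 516, 515 and 516 FPKM in shSLC1A5. In both sums the shSLC1A5 libraries lay inside the range of the shControl libraries. Together the members held 0.388 ± 0.00808% of counts in shControl and 0.386 ± 0.00158% in shSLC1A5 (SD, n = 3). In bulk RNA, fewer cells of a type and less RNA per cell cannot be told apart.

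Beneath these level sums, single members moved by small amounts in both directions. By edgeR's quasi-likelihood test with Benjamini-Hochberg adjustment over 11841 genes and a threshold of 0.05, 8 members rose and 18 fell in shSLC1A5, and 52 did not pass. Over all genes tested, 20.2% rose and 19.0% fell (39.2% either way), while the members' shares were 10.3% and 23.1% (33.3% either way). Of the 10400 protein-coding genes in the fit, 21.8% rose and 20.5% fell. The median log2 fold change of the members was -0.06, with a range of -0.28 to 0.43, beside a median of -0.01 over all genes. The 52 that did not pass lay between -0.21 and 0.19. FPKM of the groups did not overlap in 18 members that were higher and 23 that were lower, against 27.3% and 22.3% of all genes tested (49.6% either way). Of the 26 calls, 13 held whichever single library was left out, 5 of the 8 rises and 8 of the 18 falls.

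Of the 49 MRPL members 5 rose and 9 fell, with a median log2 fold change of -0.06. Of the 29 MRPS members 3 rose and 9 fell, with a median of -0.08. The difference between these subunits was not tested. The names do not follow the structures in 3 cases: MRPS18A and MRPS30 are now placed in the large subunit, and MRPS36 is a subunit of the 2-oxoglutarate dehydrogenase complex. With those moved, 5 of 51 large subunit members rose and 9 fell, and 3 of 26 small subunit members rose and 9 fell, with medians of -0.06 and -0.03. The counts also depend on single libraries. The MRPL falls numbered 5 without shControl library 1 or without shControl library 3 and 12 without shControl library 2. The MRPL rises numbered 8 without shControl library 1 or 3. The MRPS falls numbered 5 without shControl library 1, 4 without shControl library 3 and 5 without shSLC1A5 library 1. Without shSLC1A5 library 1, the one with the neutrophil and red cell counts, 5 MRPL members rose and 7 fell, 2 MRPS members rose and 5 fell, and 19 calls were made in all.

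By site, 30 large subunit members fill a site that bacterial ribosomes also have, of which 3 rose and 5 fell, and 21 fill a site specific to mitochondria, of which 2 rose and 4 fell. In the small subunit the 16 at shared sites held 1 rise and 4 falls, and the 10 at mitochondrial sites held 2 rises and 5 falls. MRPS18A and MRPS18B are counted at mitochondrial sites, although they are related to a bacterial protein. By place, the 8 members of the central protuberance held 0 rises and 2 falls (MRPL48 and MRPL18), and the 9 around the exit of the polypeptide tunnel held 1 rise (MRPL23) and 2 falls (MRPL22 and MRPL45). The 5 of the stalk and its base held 1 rise (MRPL12) and 0 falls. The 8 members along the mRNA path and decoding site held 1 rise (MRPS12) and 1 fall (MRPS18C). The 4 of the mitochondria-specific body of the small subunit held 0 rises and 2 falls (MRPS27 and MRPS23). These groups were assigned by hand from general knowledge of the structure, and with 4 to 30 members each their counts are descriptions. Of all genes tested, 20.2% rose and 19.0% fell.

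**Figure D2:**
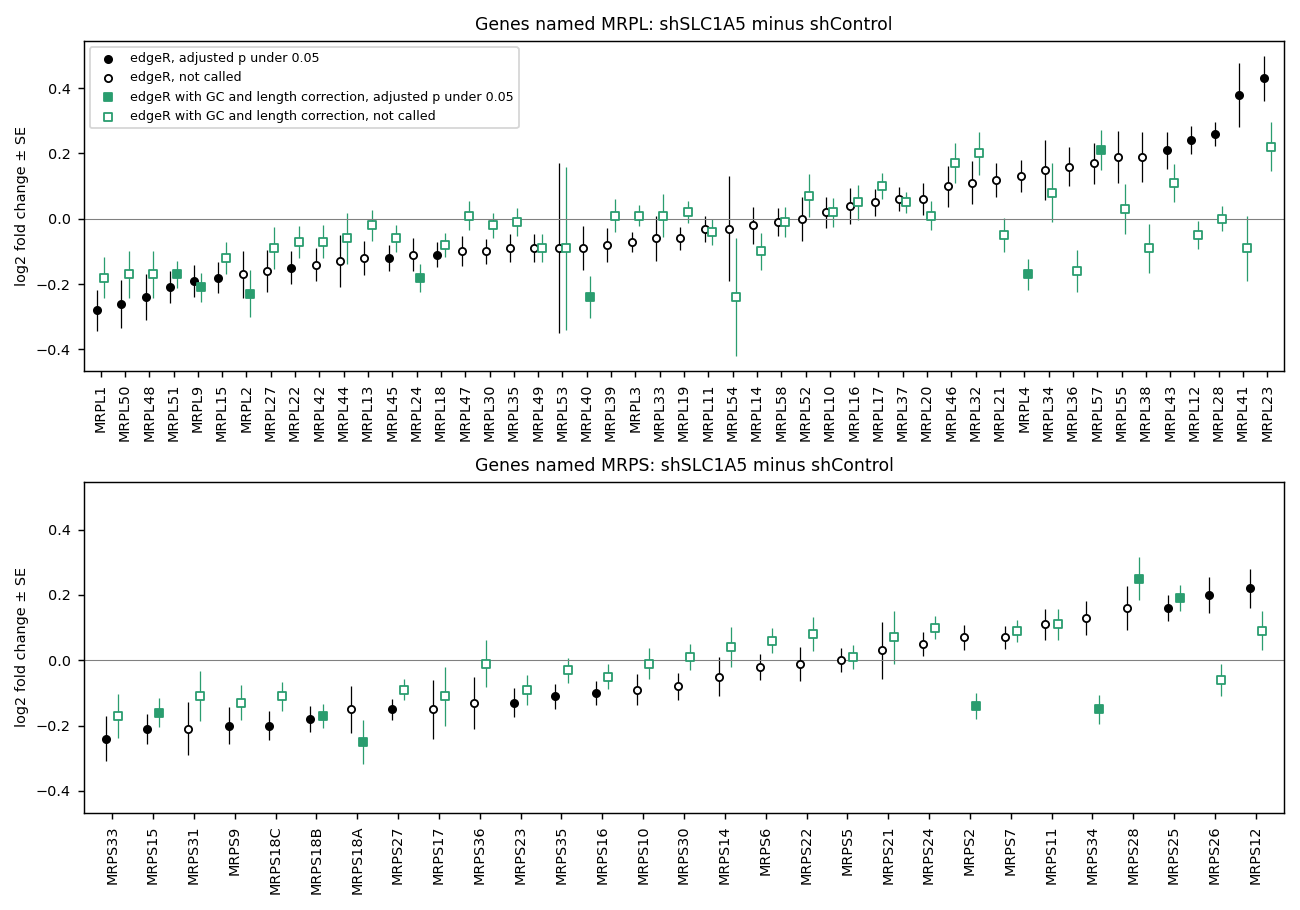
Log2 fold change (shSLC1A5 minus shControl) ± SE of each member by edgeR (circles) and by edgeR with a correction for GC content and length (squares), filled where the adjusted p was under 0.05. Circles run from MRPL1 at -0.28 to MRPL23 at 0.43, and several squares at the right end lie at or below 0 where the circles lie above it.

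Among the rises, MRPL23, which lines the exit of the polypeptide tunnel, had 8.09, 10.1 and 9.13 FPKM in shControl and 12.1, 12.7 and 12.2 FPKM in shSLC1A5. Its log2 fold change of 0.43 ± 0.069 (SE, edgeR adjusted p = 6.86e-04) was the highest of the members. MRPL41, a large subunit protein with no bacterial counterpart, had 39.2, 28.7 and 34.4 FPKM against 46.5, 44.6 and 43.7 FPKM. Neither gene's groups overlapped, although shControl libraries of MRPL41 spread widely, and its log2 fold change was 0.38 ± 0.098 (edgeR adjusted p = 0.0100). The stalk protein MRPL12, with the levels given above, had a log2 fold change of 0.24 ± 0.043 (edgeR adjusted p = 0.00130). MRPL28 had 20.4, 19.5 and 20.4 FPKM against 23.8, 24.3 and 24.6 FPKM, a log2 fold change of 0.26 ± 0.037 (edgeR adjusted p = 2.97e-04). MRPL28 overlaps TMEM8A on the same strand, which changed by 0.28 on the log2 scale, and how reads shared by both were counted is not stated.

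The 4 other rises were smaller. MRPS12, the homologue of the bacterial protein that guards decoding accuracy, had 13.2, 12.2 and 11.9 FPKM in shControl and 14.0, 15.3 and 14.4 FPKM in shSLC1A5, a log2 fold change of 0.22 ± 0.059. MRPL43 was at 7.86 ± 0.532 and 9.18 ± 0.312 FPKM (log2 fold change 0.21), and MRPS26 at 31.0 ± 0.672 and 35.9 ± 2.26 FPKM (0.20; SD, n = 3). MRPS25 had 7.51, 7.38 and 7.15 FPKM against 8.11, 8.41 and 8.42 FPKM, a log2 fold change of 0.16 ± 0.040 (edgeR adjusted p = 0.00772). In each of the 4 genes every shSLC1A5 library lay above every shControl library. Without shSLC1A5 library 2 the edgeR adjusted p of MRPS12 was 0.0672. Without shSLC1A5 library 1 it was 0.0736 for MRPS26, and that of MRPL43 reached the threshold without passing it.

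Among the falls, MRPL1, part of the mobile stalk by which spent tRNA leaves, had 12.9, 11.7 and 12.4 FPKM in shControl and 10.1, 10.0 and 10.5 FPKM in shSLC1A5. Its log2 fold change was -0.28 ± 0.063 (edgeR adjusted p = 0.00483). MRPL51, the second most abundant member, had 71.7, 69.8 and 78.6 FPKM against 65.7, 60.8 and 65.5 FPKM, a log2 fold change of -0.21 ± 0.049 (edgeR adjusted p = 0.00636). MRPS15, which binds the small subunit RNA, had 20.2, 18.8 and 20.4 FPKM against 17.4, 16.7 and 17.6 FPKM, a log2 fold change of -0.21 ± 0.045 (edgeR adjusted p = 0.00369). In these genes the groups did not overlap, and the calls held with each library left out. MRPS9, whose bacterial relative reaches toward the peptidyl site, was at 16.5 ± 1.13 and 14.5 ± 0.290 FPKM (log2 fold change -0.20), and its edgeR adjusted p was 0.0692 without shControl library 3, 0.0560 without shSLC1A5 library 1 and 0.0574 without shSLC1A5 library 3.

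MRPL50 had 6.60, 6.33 and 7.47 FPKM in shControl and 5.38, 5.84 and 5.96 FPKM in shSLC1A5, a log2 fold change of -0.26 ± 0.073 (edgeR adjusted p = 0.0159). MRPL48 had 5.06, 4.92 and 4.47 FPKM against 4.23, 4.10 and 4.05 FPKM, a log2 fold change of -0.24 ± 0.070 (edgeR adjusted p = 0.0209). MRPS33 had 5.74, 5.24 and 5.68 FPKM against 4.36, 4.75 and 5.14 FPKM, a log2 fold change of -0.24 ± 0.068 (edgeR adjusted p = 0.0164). The groups of these 3 low-level genes did not overlap, but each call rested on single libraries. The edgeR adjusted p of MRPL50 was 0.0660 without shControl library 3 and 0.0691 without shSLC1A5 library 1. That of MRPL48 was between 0.0663 and 0.0893 without shControl library 1 or 2 or shSLC1A5 library 2 or 3. That of MRPS33 was between 0.0516 and 0.0741 without shControl library 1 or 3 or shSLC1A5 library 1 or 2. The other falls were MRPL9, MRPL15, MRPS18B, MRPS18C, MRPS27, MRPL22, MRPS23, MRPL45, MRPL18, MRPS35 and MRPS16, between -0.20 and -0.10 on the log2 scale. Of these, MRPL22, MRPS23, MRPL45, MRPL18, MRPS35 and MRPS16 lost their calls when 1 of at least 3 libraries was left out, with edgeR adjusted p of up to 0.170 for MRPS16.

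**Figure D3:**
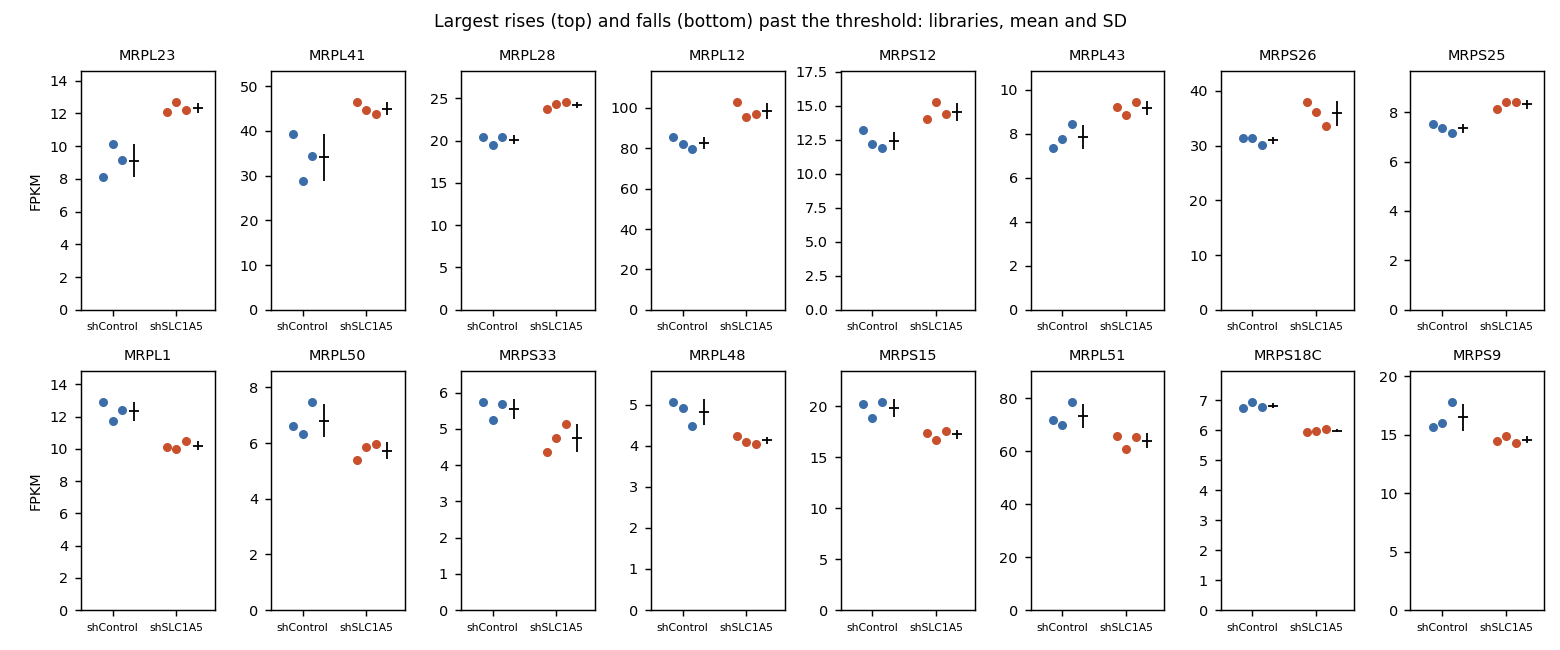
FPKM in each library with the mean and SD of 3 libraries beside it, for the 8 members that rose (top) and the 8 with the largest falls (bottom), each on its own axis from 0. In all 16 panels the groups do not overlap, from MRPL23 with 8.09 to 10.1 against 12.1 to 12.7 FPKM to MRPS9 with 15.7 to 17.8 against 14.3 to 14.9 FPKM.

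The fold changes of the members followed the base composition of their transcripts. Over the 78 members the log2 fold change and the GC content of the longest transcript had Pearson r = 0.634 and Spearman rho = 0.542, beside 0.318 and 0.490 over the 11800 tested genes with a known GC content. The points share libraries, and GC content goes with other features of a gene, so this is a description. Of the 26 members of lowest GC content (33.5 to 43.8%) 0 rose and 7 fell, of the middle 26 (44.2 to 51.8%) 1 rose and 10 fell, and of the 26 of highest GC content (52.2 to 71.9%) 7 rose and 1 fell. The rises included MRPL41 at 71.9% and MRPL12 at 64.6%, and the falls MRPL50 at 35.0% and MRPL1 at 39.1%. Shares called among all genes of the same GC ranges were not taken, before or after correction. The split by GC content therefore cannot be called particular to the members.

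With a smooth trend on GC content and length removed from every library, 3 members rose and 11 fell, beside 11.1% and 14.8% of all genes tested (25.9% either way). The members' median log2 fold change was then -0.04, with 1 rise and 6 falls among MRPL and 2 rises and 5 falls among MRPS. The log2 fold change of MRPL41 became -0.09, of MRPL12 -0.05 and of MRPS26 -0.06, each with the sign turned, and that of MRPL28 became 0.00. MRPL23 kept a positive value of 0.22 ± 0.075 that did not pass (edgeR adjusted p = 0.0518). MRPL1 kept a negative value of -0.18 ± 0.063 that did not pass either (edgeR adjusted p = 0.0511). After the correction the relation to GC content among members was weaker and of the opposite sign (r = -0.207, rho = -0.181), with 1 rise and 0 falls in the 26 of lowest GC content and 0 rises and 8 falls in the 26 of highest.

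Only 5 members passed the test in the same direction with and without this correction, beside 8.73% of all genes for rises and 10.9% for falls. MRPS25 was the single rise, at 0.19 ± 0.040 after correction (edgeR adjusted p = 0.00443). The 4 falls were MRPL51 at -0.17 (edgeR adjusted p = 0.0125), MRPS15 at -0.16 (0.0188), MRPS18B at -0.17 (0.00648) and MRPL9 at -0.21 (0.00607). MRPL9, whose bacterial relative is an elongated protein at the surface of the large subunit, had 30.6, 29.7 and 33.3 FPKM in shControl and 28.6, 26.7 and 27.1 FPKM in shSLC1A5. The 9 members that passed after correction alone were MRPL57 and MRPS28, which rose by 0.21 and 0.25, and MRPS34, MRPL24, MRPS2, MRPS18A, MRPL40, MRPL2 and MRPL4, which fell. MRPS34 and its 64.5% GC content show how far the correction moves a value: its log2 fold change was 0.13 before (edgeR adjusted p = 0.0672) and -0.15 after (edgeR adjusted p = 0.0271).

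**Figure D4:**
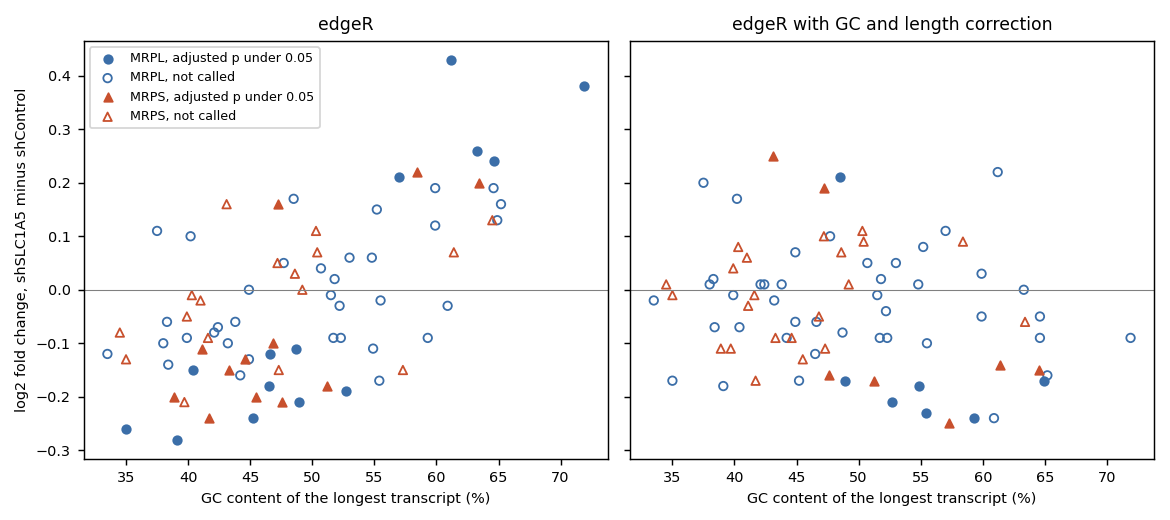
Log2 fold change of each member against the GC content of its longest transcript, by edgeR (left) and by edgeR with that trend on GC content and length removed (right), filled where the adjusted p was under 0.05. On the left the points climb with GC content (r = 0.634); on the right the trend is weak and slopes downward (r = -0.207).

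The paralogs MRPS18A, MRPS18B and MRPS18C descend from the bacterial protein S18, and in the mitoribosome they occupy separate sites. MRPS18B stood at 36.3, 34.2 and 37.0 FPKM in shControl and 31.4, 32.3 and 32.3 FPKM in shSLC1A5, a log2 fold change of -0.18 ± 0.040 (edgeR adjusted p = 0.00556). MRPS18C stood at 6.76, 6.94 and 6.78 FPKM against 5.93, 5.98 and 6.05 FPKM, a log2 fold change of -0.20 ± 0.044 (edgeR adjusted p = 0.00393), which was -0.11 and did not pass after correction (edgeR adjusted p = 0.0846). The groups did not overlap in either gene. MRPS18A, the large subunit paralog, had 22.9, 21.9 and 26.8 FPKM against 21.5, 21.4 and 22.3 FPKM, and its groups overlapped. Its log2 fold change of -0.15 ± 0.071 did not pass (edgeR adjusted p = 0.127), but after correction it was -0.25 ± 0.066 and passed (edgeR adjusted p = 0.0157), beside -0.17 for MRPS18B.

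Some members have roles beyond the ribosome's frame. MRPL45, which anchors the ribosome to the inner membrane, had 27.3, 26.9 and 26.9 FPKM in shControl and 24.0, 25.8 and 25.7 FPKM in shSLC1A5 (log2 fold change -0.12, edgeR adjusted p = 0.0413, but 0.0934 without shControl library 1, 0.0579 without shControl library 3 and 0.121 without shSLC1A5 library 1). MRPS27, a pentatricopeptide repeat protein of the small subunit, had 18.4, 17.3 and 17.7 FPKM against 15.9, 16.3 and 16.2 FPKM (log2 fold change -0.15, edgeR adjusted p = 0.00300). MRPL58, a peptidyl-tRNA hydrolase that releases stalled chains and is also built into the large subunit, was at 29.3 ± 0.404 and 29.4 ± 0.598 FPKM (SD, n = 3). The groups of MRPL58 overlapped, and its log2 fold change was -0.01 ± 0.044 (edgeR adjusted p = 0.917). MRPS30, also in the large subunit, was at 7.27 ± 0.209 and 6.95 ± 0.0550 FPKM (log2 fold change -0.08, and 0.01 after correction). The dehydrogenase subunit MRPS36 was at 14.1 ± 1.11 and 13.0 ± 1.06 FPKM (log2 fold change -0.13, edgeR adjusted p = 0.215).

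Replicate spread was small for most members. The coefficient of variation of FPKM had a median of 4.86% in shControl and 3.52% in shSLC1A5, and 70 of the 78 members stayed at or under 10% in both groups. MRPL53, a stalk base protein chosen here after its values were seen, had the widest spread, 31.9% and 37.2%. In shControl it was counted 801, 701 and 1172 times, and 966, 1283 and 587 times in shSLC1A5. CCDC142, which overlaps MRPL53 on the same strand, had 1179, 1242 and 731 counts against 1546, 1097 and 1959, high where MRPL53 was low. Added together and scaled to the size of each library (CPM), they gave 31.2, 30.9 and 32.1 in shControl and 35.5, 35.1 and 38.0 in shSLC1A5, a far narrower spread within each group. The level of MRPL53 alone is therefore uncertain.

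**Figure D5:**
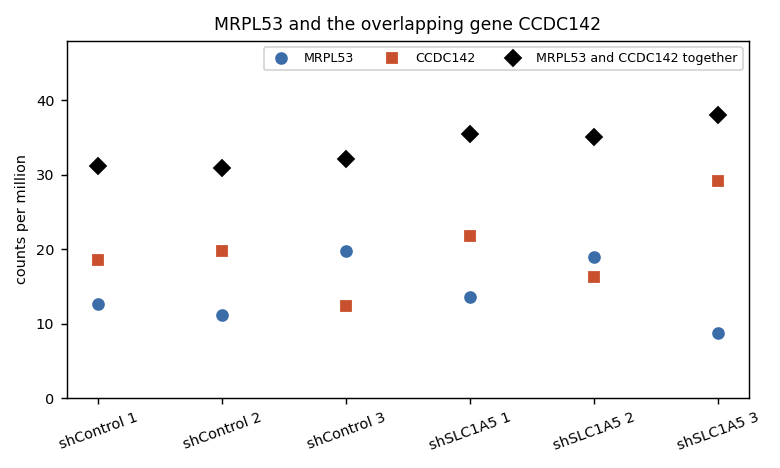
Counts scaled to library size (CPM) of MRPL53, of CCDC142 and of both together in each of the 6 libraries. MRPL53 and CCDC142 mirror each other from library to library, and their sum stays within 30.9 to 32.1 in shControl and 35.1 to 38.0 in shSLC1A5.

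Other overlaps were common. By whole gene span, introns included, 23 members overlap another gene on the same strand and 38 overlap one on the opposite strand. Their counts may carry the same uncertainty where exons are shared and the partner is expressed. Overlap of exons was not counted. The span of MRPL51 overlaps that of NCAPD2 on the opposite strand, that of MRPS18B overlaps PPP1R10 and that of MRPS25 overlaps NR2C2. The log2 fold changes of these partners were -0.05, 0.10 and -0.06. A protein-coding gene starts divergently within 1000 bases of 17 members. One such pair is MRPL46 and MRPS11, a large and a small subunit gene on chromosome 15 whose starts lie 34 bases apart, with log2 fold changes of 0.10 and 0.11 that did not pass (edgeR adjusted p = 0.223 and 0.103). Of 25 listed pseudogenes of members, 21 had a mean under 10 counts.

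Promoter windows of 300 bases, 250 before to 50 after the RefSeq start (GRCh38.p14), were found for 69 of the 78 members. MRPL2, MRPL10, MRPL13, MRPL15, MRPL21, MRPL23, MRPL35, MRPS28 and MRPS36 had none. Both strands were searched for 5 motifs, chosen with the results known, of factors associated with mitochondrial genes. The ETS family motif CCGGAAG, which GABP binds, was in 29 of the 69 windows (42%), against 10.7% of all 27305 windows and 14.2% of the 15843 of protein-coding genes. The YY1 motif AAGATGGC was in 20 (29%), against 3.03% and 3.91%, and 8 members had both. The full palindromic motif of NRF1 was in 1 (1.45%, against 1.36% of all windows), and its core GCATGCGC, added after that result and contained in the full motif, was in 6 (8.7%, against 4.26% of windows of protein-coding genes). The E-box CACGTG was in 6 (8.7%), against 8.88% of windows of protein-coding genes. A match describes letters and is not a binding site.

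The YY1 letters had 21 matches in the 20 members. They contain ATG, the letters of a start codon, and whether the matches lie at start codons was not tested. In 15 members they were on the gene's own strand and began 7 to 36 bases into the transcript, counting the first transcribed base as 1. The other 6 matches lay before the start, in MRPL32 at -222, MRPS12 at -212, MRPL52 at -98 and -64, MRPL47 at -92 and MRPL36 at -35, and 4 of them were on the opposite strand. The following 30-base stretches, chosen from the 15 to show this position across both subunits, are written 5′ to 3′ on the gene's strand with the YY1 letters in capitals, from RefSeq on GRCh38.p14. MRPL51, MRPL50, MRPL45, MRPS18B and MRPS27 fell in shSLC1A5, and MRPL42, MRPL46, MRPS18A and MRPS30 did not pass.
MRPL51 (chr12:6493223-6493252, minus strand): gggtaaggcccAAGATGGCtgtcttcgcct
MRPL50 (chr9:101398577-101398606, minus strand): ggatctcatcgAAGATGGCggcgcgatctg
MRPL45 (chr17:38297170-38297199, plus strand): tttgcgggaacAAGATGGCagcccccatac
MRPS18B (chr6:30617852-30617881, plus strand): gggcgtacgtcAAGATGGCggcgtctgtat
MRPS27 (chr5:72320206-72320235, minus strand): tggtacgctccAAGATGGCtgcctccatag
MRPL42 (chr12:93467511-93467540, plus strand): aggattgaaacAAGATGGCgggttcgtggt
MRPL46 (chr15:88467362-88467391, minus strand): tgggagaacgaAAGATGGCggcgcccgtaa
MRPS18A (chr6:43687764-43687793, minus strand): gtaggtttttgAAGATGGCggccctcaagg
MRPS30 (chr5:44808949-44808978, plus strand): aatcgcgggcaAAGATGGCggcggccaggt

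The ETS letters had 39 matches at -222 to 8, with a median position of -22, and 27 lay within 50 bases of the start. Stretches of 3 members that rose and 2 that fell are shown for their calls, not their positions, which are 8 in MRPL28, -18 in MRPL43, -5 in MRPS12, -104 in MRPL51 and 1 in MRPS33. They are written in the same way, with the ETS letters in capitals, or their reverse complement CTTCCGG where the match is on the opposite strand.
MRPL28 (chr16:370513-370542, minus strand): cggcagatcggCTTCCGGttccggtgggct
MRPL43 (chr10:100987497-100987526, minus strand): tcgtcccggaaCCGGAAGcctcgaggttta
MRPS12 (chr19:38930928-38930957, plus strand): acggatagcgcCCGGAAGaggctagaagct
MRPL51 (chr12:6493348-6493377, minus strand): cggcaggcggaCCGGAAGcactgaggcggg
MRPS33 (chr7:141014934-141014963, minus strand): agagggcgggcCTTCCGGgacgagggcgcg

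The 250 bases before the start of MRPS18A hold no annotated exon of another gene and are shown whole as an example, with the ETS letters in capitals (chr6:43687792-43688041, minus strand, GRCh38.p14).
MRPS18A: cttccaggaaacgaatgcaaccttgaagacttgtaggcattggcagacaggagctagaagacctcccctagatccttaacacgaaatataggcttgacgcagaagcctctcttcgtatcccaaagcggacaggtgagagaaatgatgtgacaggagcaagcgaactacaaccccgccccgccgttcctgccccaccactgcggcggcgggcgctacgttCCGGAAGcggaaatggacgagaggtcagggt

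The letters occurred in members that rose, fell or did not pass. The ETS letters were in 4 of 7 windows of members that rose, 6 of 17 of members that fell and 19 of 45 of those that did not pass. The YY1 letters were in 1, 6 and 13 of the same windows, and these shares were not tested. Among 8 tested regulators of nuclear genes for mitochondria, 5 rose and 1 fell (62.5% and 12.5%, beside 20.2% and 19.0% of all genes tested). NRF1, a transcription factor of mitochondrial genes, had a log2 fold change of 0.18 (edgeR adjusted p = 0.0393), and YY1 one of 0.11 (edgeR adjusted p = 0.0470). GABPB1, the partner of the ETS factor GABPA, had -0.15 (edgeR adjusted p = 0.0327). Of the 6 fits with a library left out, the NRF1 and YY1 calls held in 1 each and that of GABPB1 in 2. After correction NRF1 was at 0.21 (edgeR adjusted p = 0.0288), YY1 at 0.11 (0.0460) and GABPB1 at -0.08 (0.286). ESRRA, a nuclear receptor of energy metabolism, had 8.68, 10.1 and 10.0 FPKM in shControl and 12.1, 11.8 and 12.7 FPKM in shSLC1A5, a log2 fold change of 0.33 ± 0.060 that was 0.08 after correction (edgeR adjusted p = 0.367). PPARGC1B, a coactivator of such receptors, was at 1.11 ± 0.0503 and 1.33 ± 0.0218 FPKM, a log2 fold change of 0.24 (edgeR adjusted p = 0.0168). Its edgeR adjusted p was 0.0575 without shControl library 1 and 0.0759 without shSLC1A5 library 1. After correction PPARGC1B kept its call, at 0.22 (edgeR adjusted p = 0.0340). MYC, the remaining rise, had 0.15 (edgeR adjusted p = 0.0459), and 0.11 after correction (edgeR adjusted p = 0.165). The 6 calls of this list became 2 without shControl library 1 or shSLC1A5 library 1, 3 without shControl library 2 or 3 or shSLC1A5 library 3, and 4 without shSLC1A5 library 2.

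The RNAs onto which the members assemble were also measured, although they are poorly captured by oligo(dT). MT-RNR1, the small subunit RNA, had 1523, 1498 and 1545 FPKM in shControl and 1247, 1171 and 1231 FPKM in shSLC1A5. Its log2 fold change was -0.34 ± 0.025 (edgeR adjusted p = 2.85e-06) and -0.27 after correction (edgeR adjusted p = 1.02e-06). MT-RNR2, the large subunit RNA, had 3574, 3535 and 3621 FPKM against 3029, 2994 and 3131 FPKM, a log2 fold change of -0.24 ± 0.018 (edgeR adjusted p = 2.52e-06) and -0.16 after correction. Both fell with groups far apart, while the summed levels of the protein mRNAs of either subunit overlapped. The summed mRNAs of mitochondrial DNA were 36228 ± 243 FPKM in shControl and 34244 ± 476 FPKM in shSLC1A5 (SD, n = 3).

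The 5 mitoribosomal proteins under other names held 1 rise and 1 fall. DAP3, a GTP-binding protein of the small subunit, was at 27.5 ± 0.874 and 25.5 ± 0.625 FPKM (SD, n = 3). Its log2 fold change was -0.12 (edgeR adjusted p = 0.00769), and -0.07 after correction (edgeR adjusted p = 0.119). AURKAIP1, also of the small subunit, was at 34.9 ± 0.768 and 39.5 ± 1.88 FPKM, a log2 fold change of 0.17 (edgeR adjusted p = 0.00990) that turned to -0.21 after correction (edgeR adjusted p = 0.00951). Of 29 genes of assembly and ribosomal RNA modification 4 rose and 4 fell (13.8% each, beside 20.2% and 19.0% of all genes tested). After correction 0 rose and 4 fell (0% and 13.8%, beside 11.1% and 14.8%). GTPBP10, a GTPase of large subunit assembly, had 4.49, 4.31 and 4.12 FPKM against 3.67, 3.32 and 3.62 FPKM, a log2 fold change of -0.30 ± 0.053 and -0.23 after correction (edgeR adjusted p = 0.0105). DHX30, an RNA helicase of assembly, changed by 0.29 ± 0.040 (0.09 after correction), and METTL15, which methylates the small subunit RNA, by -0.26 ± 0.066. The edgeR adjusted p of METTL15 was 0.0582 without shSLC1A5 library 1. After correction METTL15 was at -0.18 (edgeR adjusted p = 0.0685).

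Of 18 translation factors 0 rose and 2 fell (11.1% either way, beside 39.2% of all genes tested). GFM2, which recycles ribosomes after translation, had 25.7, 26.2 and 26.4 FPKM in shControl and 21.9, 22.3 and 24.0 FPKM in shSLC1A5, a log2 fold change of -0.21 ± 0.037 and -0.14 after correction (edgeR adjusted p = 0.0193). The initiation factor MTIF2 was at 16.7 ± 0.298 and 14.7 ± 0.854 FPKM. Its log2 fold change was -0.19 (edgeR adjusted p = 0.00588), and -0.11 after correction (edgeR adjusted p = 0.0894). The list held 4 calls without shControl library 2. Of 12 genes of mitochondrial transcription and RNA processing 1 rose and 2 fell (25.0% either way, beside the same 39.2%). POLRMT, the mitochondrial RNA polymerase, had 5.12, 5.93 and 5.57 FPKM against 7.77, 8.18 and 8.02 FPKM, a log2 fold change of 0.52 ± 0.054 (edgeR adjusted p = 3.53e-05) that was 0.17 after correction (edgeR adjusted p = 0.0390). The transcription terminator MTERF1 changed by -0.25 ± 0.064 (edgeR adjusted p = 0.00978), and by -0.17 after correction (edgeR adjusted p = 0.0768).

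Of 5 matrix proteases 3 rose and 0 fell (60.0% and 0%, beside 20.2% and 19.0% of all genes tested). LONP1 had 22.1, 21.5 and 20.8 FPKM in shControl and 26.2, 26.9 and 26.2 FPKM in shSLC1A5, a log2 fold change of 0.29 ± 0.031 (edgeR adjusted p = 4.26e-05) that was 0.03 after correction. SPG7, a subunit of the protease that matures MRPL32, changed by 0.21 ± 0.034, and by 0.10 after correction (edgeR adjusted p = 0.0394). Beside the mitoribosomal proteins, 18 of 84 tested cytosolic ribosomal proteins rose and 46 fell, with a median log2 fold change of -0.11. These were 21.4% and 54.8%, beside 20.2% and 19.0% of all genes tested. Of 77 tested nuclear genes of the respiratory chain and ATP synthase 21 rose and 12 fell (27.3% and 15.6%), with a median of -0.00. After correction 11 cytosolic ribosomal proteins rose and 39 fell (13.1% and 46.4%). Of the respiratory chain list 19 then rose and 7 fell (24.7% and 9.09%), beside 11.1% and 14.8% of all genes tested. The differences between these lists and the mitoribosomal proteins were not tested.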

How the data were processed

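The 6 libraries of poly(A) RNA, 3 per group, were read as paired ends, per the labels' protocols. The authors used fastp, HISAT2 and StringTie, per the submitters' processing notes. Not given in the sources used here are their versions, the build, the gene models, strandedness and how reads were assigned. The deposited table holds counts per gene and, per the file headers, FPKM made by the authors. GENCODE 29 (GRCh38) holds 34674 of its 35750 gene IDs, at overlapping coordinates for 99.86%. Total counts were 59327548 to 70802167 per library.

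Counts of the 11841 genes that averaged 1 FPKM or more were fitted over all 6 libraries with edgeR 4.0.16 in R 4.3.3 (TMM factors, group alone, quasi-likelihood F test, Benjamini-Hochberg adjustment, threshold 0.05). The biological coefficient of variation was 0.0982. The correction used loess (span 0.3) offsets for GC content and transcript length, taken from each gene's longest GENCODE 29 transcript and available for 99.65% of genes tested. DESeq2 1.42.0, limma 3.58.1, other scalings and filters, a replicate block, and fits leaving out 1 library each served as alternatives. The fits were tested on simulated data, with no GC trend or with one of a size set beforehand. With that trend the uncorrected fit called 3658 of 11641 unchanged genes, and the corrected fit called 13. Without it they called 9 and 8. At a simulated log2 fold change of 0.25, the uncorrected fit recovered 50.7% of changes with the trend and 37.3% without. The corrected fit recovered 25.4% and 37.3%. The planted trend was a smooth one on GC content, which the correction is built to remove. These simulated counts therefore do not give the error of the calls in the real data. Same-numbered libraries of the groups did not deviate together (correlations -0.1515, 0.0356 and -0.0343), and within groups every pair of libraries differed by more than counting noise (chi-square per gene 9.82 to 16.67).

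Named genes are SLC1A5, the 8 largest rises and 8 largest falls past the threshold without overlap, the 4 members of highest and the 4 of lowest FPKM, 10 members chosen by role, and up to 2 or 3 called genes of each related list. Others named passed in another fit or were chosen after their values were seen. MTRFR was matched by gene ID. HBB was not analysed here. The promoter printed whole was picked by hand from the 7 windows with no GENCODE 29 exon before the start, after an earlier pick of 9 members left none. Members, lists, motifs and the printed promoter stretches were chosen with earlier results of these data known.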

Additional observations from a re-analysis of the deposited data

How the results depend on the processing

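Against 26 calls among members in the report, 11 were made with no filter on low values, 14 with the GC and length correction and 16 with that correction and a replicate block. Over all genes tested, 39.2% were called in the report and 25.9% with the correction. Shares over all genes in the other fits are not given here. A shift of the whole table therefore cannot be told apart from one of the members or lists. The MRPL rises, 5 in the report, numbered 8 with DESeq2, 3 with no filter, 10 at a mean of at least 5 FPKM, 8 by limma with either pseudocount, 1 with the correction, 3 with correction and block, and 5 to 8 with a library left out. The MRPL falls, 9 in the report, numbered 3 with no filter and 5 to 12 with a library left out. The MRPS rises, 3 in the report, numbered 1 with no filter. The MRPS falls, 9 in the report, numbered 4 with no filter, 5 with the correction, with and without block, and 4 to 8 with a library left out. The MRPS median, -0.08, was -0.03 with the correction, with and without block, -0.03 by structure, and -0.08 to -0.05 with a library left out.

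Calls of the other lists, by correction, correction with block, and no filter where it moved them, were 1 and 1 for proteins under other names (2 in the report), 4, 4 and 5 for assembly (8), and 1, 1 and 1 for transcription (3). Translation factors had 4 calls with DESeq2, 1 and 1 with the correction and 2 to 4 with a library left out (2 in the report). Proteases had 1 with correction and block (3). Regulators had 2 with no filter, 3 with filterByExpr, 3 with the correction, 3 with the replicate block, 0 with both and 2 to 4 with a library left out (6). Respiratory chain genes had 16 with no filter (33). The cause of these shifts was not tested.

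The sign turned with the correction, without and with block, for MRPL41 (-0.09 and -0.08), MRPL12 (-0.05 and -0.05), MRPS26 (-0.06 and -0.06), MRPS34 (-0.15 and -0.15), MRPS30 (0.01 and 0.01) and AURKAIP1 (-0.21 and -0.21). MRPL58, which was not called, was at 0.00 with upper-quartile factors, 0.01 at a mean of at least 5 FPKM, 0.01 by limma with either pseudocount and -0.02 to 0.01 with a library left out. The labels do not say that a replicate number marks a shared culture or day. With the replicate number as a block alone, 6 MRPL members rose and 9 fell, and 3 MRPS members rose and 8 fell. Every member had at least 323 counts in each library.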
